A study of Mus musculus with 6 samples.

Results

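The 10 genes of the hypoxia response analysed here were followed through whole skin of mice that lack JunB in the epidermis and of control mice. The genes were taken by symbol from the table of expression values, and all 10 were found among its 23951 gene symbols. They are Hif1a, Vegfa, Adm, Ankrd37, Car9, Egln3, Ndrg1, Slc2a1, Bnip3 and Pdk1. All 10 passed the filter on low values, a 6-mouse mean of 0.1 FPKM or more, as did 17021 genes of the table. FPKM scales fragments by transcript length in kilobases and by each 1000000 that mapped, so levels of different genes can be set side by side.

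Hypoxia-inducible factor (HIF) is a pair of proteins, an oxygen-regulated alpha subunit and the stable partner Arnt. When oxygen is ample, prolyl hydroxylases mark the alpha subunit for destruction by the Vhl ubiquitin ligase, and when oxygen is short the pair binds DNA and raises genes for glucose use, blood vessel growth, pH control and removal of mitochondria. Skin is a tissue of low oxygen in its outer layers, and inflamed skin adds the oxygen use of immune cells. Hif1a is regulated mainly at the protein level, so its mRNA is not a measure of HIF activity.

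The labels give 3 mice as JunB dep and 3 as JunB +/+, all C57Bl/6 and 6 to 7 months old. The first group, called JunBΔep here, carries a floxed Junb deleted by a Cre under the keratin 5 promoter, so only cells that have expressed keratin 5, such as basal keratinocytes, lose the gene. Dermal, immune and muscle cells of the sample keep it. The skin of JunBΔep mice was taken from lesions, the study as a whole used mice of both sexes, and no source used here says whether the controls carried the Cre. RNA came from whole skin, and in such samples fewer cells of a type and less RNA per cell cannot be told apart.

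The deposited values summed to 481078 to 630363 FPKM per mouse, and the number of reads is unknown. Junb, the deleted gene, was at 59.3, 72.4 and 56.9 FPKM in the 3 controls (0, 1 and 2) and at 130, 42.8 and 28.0 FPKM in JunBΔep-labelled libraries 0, 1 and 2. The library labelled JunBΔep replicate 0 thus held more Junb than any control, the opposite of what the deletion alone would give. Whole skin cannot decide whether the label is right, since immune, dermal and muscle cells keep the gene. That library also stood apart in other genes. Its neutrophil markers summed to 25124 FPKM, where the next highest mouse had 883 FPKM, and its adipocyte markers to 70.1 FPKM, against at least 1876 FPKM. The paper reports more neutrophils in JunBΔep skin at later stages of disease. In JunBΔep replicates 1 and 2 the neutrophil sums were 52.3 and 148 FPKM, against 78.6 to 883 FPKM in the controls. The part of immune cells in the Junb level of replicate 0 was not tested. Of the 10 keratinocyte markers, that library held the top value for 4 and the bottom value for 4. Krt14, Krt6a and Krt16 are listed at 0 in it. Lor, at 823 FPKM, fell short of the 1408 to 3011 FPKM of the controls, and Krt10 stayed inside their range. Krt5 was at 3725 FPKM, Krt1 at 4466 FPKM and Dsg3 at 76.3 FPKM, each above every control. Skeletal muscle markers summed to 22990 to 32136 FPKM in the controls and to 2114 to 5027 FPKM in the JunBΔep-labelled libraries. The log2 fold changes of the members and of the pathway genes with an unadjusted p below 0.05 are therefore given with and without the library labelled JunBΔep replicate 0.

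The core of the HIF site is ACGTG or GCGTG, searched on both strands in the 250 bases before each transcription start of the RefSeq promoter table. The table covers 9 of the 10 members. The core was found in the most upstream window of 8 of these 9 members, and in 38.6% of all 32851 windows in the table. The windows of 5 members are shown, 3 whose levels were far higher in the library labelled JunBΔep replicate 0 (Egln3, Slc2a1 and Car9) and 2 whose levels were not (Bnip3 and Vegfa). Each runs 5′ to 3′ toward the start and was matched without a mismatch to mm9. Capitals mark the core on either strand, and neighbouring cores can overlap.
Egln3 (chr12:55304862-55305111, minus strand): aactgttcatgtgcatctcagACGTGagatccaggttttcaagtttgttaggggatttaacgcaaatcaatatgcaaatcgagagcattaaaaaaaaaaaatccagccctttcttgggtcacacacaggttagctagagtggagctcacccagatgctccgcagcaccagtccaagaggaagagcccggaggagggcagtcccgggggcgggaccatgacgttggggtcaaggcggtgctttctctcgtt
Slc2a1 (chr4:118781100-118781349, plus strand): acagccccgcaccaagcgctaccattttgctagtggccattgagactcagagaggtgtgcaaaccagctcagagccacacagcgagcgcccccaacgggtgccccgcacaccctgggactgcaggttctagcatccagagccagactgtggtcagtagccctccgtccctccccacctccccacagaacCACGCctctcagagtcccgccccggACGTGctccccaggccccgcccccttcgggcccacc
Car9 (chr4:43519648-43519897, plus strand): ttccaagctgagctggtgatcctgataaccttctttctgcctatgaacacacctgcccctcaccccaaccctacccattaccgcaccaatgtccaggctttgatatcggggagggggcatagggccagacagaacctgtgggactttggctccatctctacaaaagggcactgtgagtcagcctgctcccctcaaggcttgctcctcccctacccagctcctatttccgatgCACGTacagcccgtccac
Bnip3 (chr7:146101190-146101439, minus strand): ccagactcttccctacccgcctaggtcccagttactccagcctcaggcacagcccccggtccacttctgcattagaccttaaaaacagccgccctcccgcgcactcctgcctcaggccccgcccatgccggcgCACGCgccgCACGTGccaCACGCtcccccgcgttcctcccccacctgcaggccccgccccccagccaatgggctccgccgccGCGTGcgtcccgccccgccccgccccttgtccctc
Vegfa (chr17:46169327-46169576, minus strand): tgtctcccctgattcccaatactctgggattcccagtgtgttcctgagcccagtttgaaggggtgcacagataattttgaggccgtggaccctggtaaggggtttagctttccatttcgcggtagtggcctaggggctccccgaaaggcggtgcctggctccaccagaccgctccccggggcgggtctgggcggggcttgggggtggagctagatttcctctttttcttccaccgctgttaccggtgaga
In Car9 the single core starts 18 bases before the transcription start, in Slc2a1 the cores start at 61 and 36 bases and in Egln3 at 229 bases. Bnip3 held 5 cores, the most of any member, and its level was below the control mean in the library where Egln3, Slc2a1 and Car9 were high. The window before the most upstream Vegfa start holds none, while that of a second, downstream Vegfa start holds 2. A match is a description of the letters and not evidence of binding.

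In control skin the 10 genes spanned levels from below 1 to about 99 FPKM. The highest was Bnip3, at 98.9 ± 24.9 FPKM (SD, n = 3), followed by Ndrg1 at 65.9 ± 15.6 FPKM, Vegfa at 42.7 ± 5.62 FPKM, Egln3 at 25.3 ± 9.43 FPKM and Slc2a1 at 21.0 ± 5.76 FPKM. Hif1a was at 12.3 ± 2.26 FPKM, Pdk1 at 11.6 ± 0.397 FPKM, Adm at 6.15 ± 1.11 FPKM, Ankrd37 at 5.05 ± 0.880 FPKM and Car9 at 0.811 ± 0.175 FPKM. The ranges of the control mice overlapped between Bnip3 and Ndrg1, between Egln3 and Slc2a1, between Hif1a and Pdk1 and between Adm and Ankrd37, so the order within these pairs lies within the spread. The other neighbours in the order did not overlap. In the library labelled JunBΔep replicate 0 the order was different, with Egln3 and Slc2a1 in the first places, at 172 and 171 FPKM, and Ndrg1 and Hif1a next, at 121 and 109 FPKM.

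**Figure D1:**
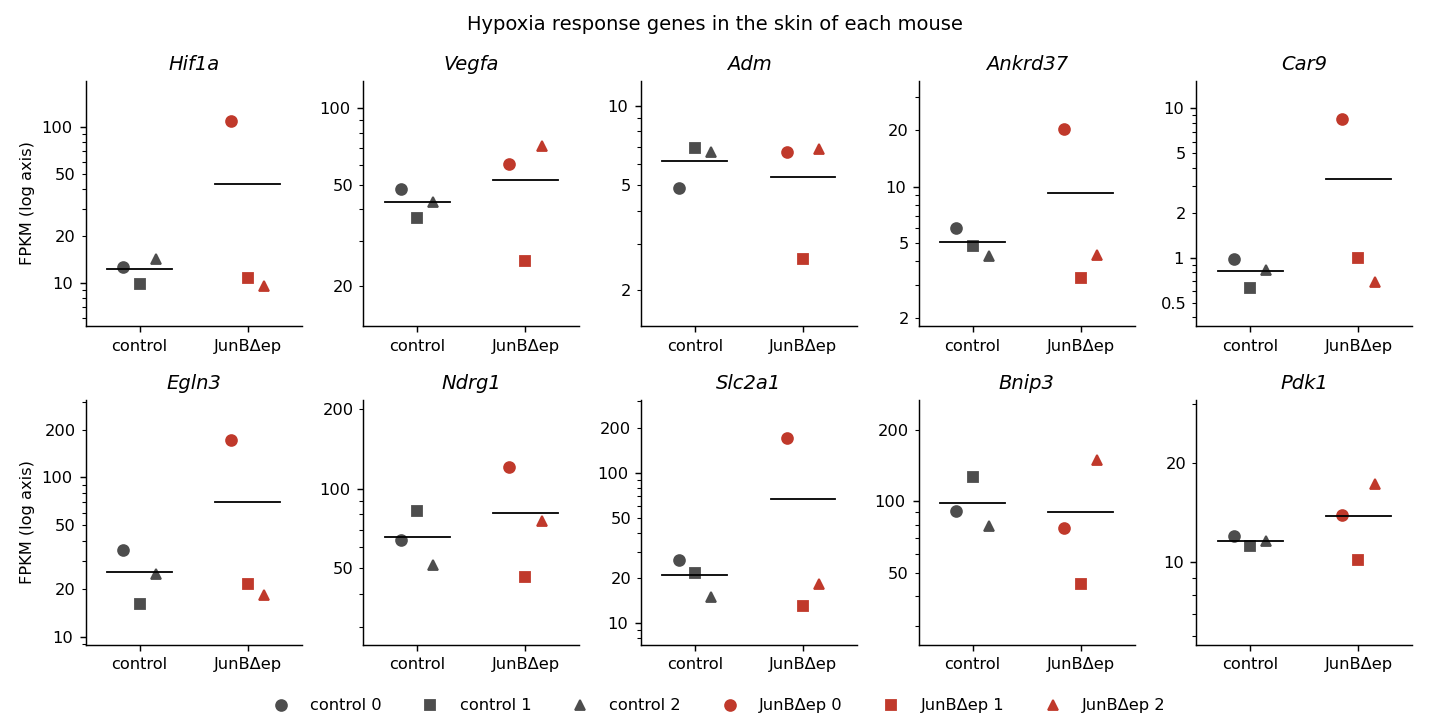
FPKM of each hypoxia response gene in each of the 6 mice, on a log axis that differs between panels, with a line at the mean of each group. For Hif1a, Ankrd37, Car9, Egln3 and Slc2a1 the circle of the library labelled JunBΔep replicate 0 stands above all other points, and for Vegfa, Bnip3 and Pdk1 the highest point is the triangle of JunBΔep replicate 2.

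No hypoxia response gene passed the test between the genotypes, and the differences lay within the spread between mice. In the limma comparison of log2(FPKM + 0.5), 0 of the 10 genes had an adjusted p below 0.05, and 0 had an unadjusted p below 0.05. Over all tested genes 1.38% were called, all of them lower in the JunBΔep-labelled libraries, and 7.56% had an unadjusted p below 0.05 (6.13% lower). The ranges of the groups overlapped in all 10 members, and they did not overlap in 14.8% of all tested genes. The log2 fold change was above 0 for 8 of the 10 members, against 53.4% of all tested genes, with a median of 0.30 against 0.03 over all tested genes. Leaving out the library labelled JunBΔep replicate 0 moved the median of the members to -0.24, and again 0 of 10 were called, against 0.798% of the genes tested in that fit (135 genes, 10 of them higher). The intervals are wide, so these tests do not show that the levels were alike.

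Hif1a (chromosome 12, 75002362 to 75048517 on mm9), the oxygen-regulated subunit itself, was at 12.6, 9.85 and 14.3 FPKM in the 3 controls (0, 1 and 2) and at 109, 10.7 and 9.54 FPKM in JunBΔep-labelled libraries 0, 1 and 2. One library was 8.92 times the control mean, and the other 2 lay within or just below the control range. The log2 fold change was 0.87 (standard error 0.93, 95% interval -1.39 to 3.14, limma adjusted p = 0.754), and -0.25 without that library.

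Egln3 (chromosome 12, 55279968 to 55304847) encodes a prolyl hydroxylase that acts on HIF alpha subunits and is itself induced by HIF. It was at 34.9, 16.1 and 24.9 FPKM in the controls and at 172, 21.5 and 18.4 FPKM in JunBΔep-labelled libraries 0, 1 and 2. The pattern is that of Hif1a, with one library at 6.78 times the control mean and the other 2 inside the control range. JunBΔep and control differed by a log2 fold change of 0.75 (standard error 0.88, 95% interval -1.39 to 2.90, limma adjusted p = 0.775), and -0.27 without that library.

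Of the genes for glucose and pyruvate handling, one shared this pattern and one did not. Slc2a1 (chromosome 4, 118781316 to 118809935), the glucose transporter GLUT1, was at 26.4, 21.7 and 14.9 FPKM in the controls and at 171, 13.0 and 18.4 FPKM in the JunBΔep-labelled libraries. One library was at 8.16 times the control mean, and JunBΔep replicate 1 was the lowest of the 6 mice. The log2 fold change was 0.75 (standard error 0.96, 95% interval -1.59 to 3.09, limma adjusted p = 0.795), and -0.39 without the library labelled JunBΔep replicate 0. Pdk1 (chromosome 2, 71711281 to 71741915), a kinase that shuts pyruvate dehydrogenase and so keeps pyruvate out of mitochondria, was at 12.02, 11.2 and 11.6 FPKM in the controls and at 13.9, 10.2 and 17.2 FPKM in the JunBΔep-labelled libraries. It varied least among the controls, with a coefficient of variation of 3.42%, against 13.1% to 37.3% for the other members. Its log2 fold change was 0.20 (standard error 0.22, 95% interval -0.33 to 0.74, limma adjusted p = 0.758), the narrowest interval of the 10. It was 0.18 without the library labelled JunBΔep replicate 0, 0.40 without replicate 1 and 0.03 without replicate 2.

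Car9 (chromosome 4, 43519838 to 43526601), a cell surface carbonic anhydrase that handles acid from glycolysis and is a common marker of hypoxic cells, was at 0.975, 0.627 and 0.831 FPKM in the controls and at 8.48, 0.998 and 0.683 FPKM in the JunBΔep-labelled libraries. Only the library labelled JunBΔep replicate 0 exceeded 1 FPKM, at 10.5 times the control mean, the largest ratio of the 10 genes. JunBΔep and control differed by a log2 fold change of 0.95 (standard error 0.77, 95% interval -0.94 to 2.83, limma adjusted p = 0.722) and 0.03 without that library. Since 0.5 was added to each value, this understates the change of a gene at so low a level.

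Ankrd37 (chromosome 8, 47082256 to 47085221), which encodes a small ankyrin repeat protein and is a known HIF target, was at 6.01, 4.85 and 4.28 FPKM in the controls and at 20.3, 3.26 and 4.33 FPKM in the JunBΔep-labelled libraries. It was high in the same library, at 4.03 times the control mean, and lowest in JunBΔep replicate 1. Its log2 fold change was 0.39 (standard error 0.65, limma adjusted p = 0.837), and -0.37 without the library labelled JunBΔep replicate 0. Ndrg1 (chromosome 15, 66760883 to 66801202), a stress-responsive gene of differentiating epithelia, was at 64.0, 82.4 and 51.4 FPKM in the controls and at 121, 46.5 and 75.4 FPKM in the JunBΔep-labelled libraries. The highest value was again in the library labelled JunBΔep replicate 0, but at only 1.83 times the control mean. Its log2 fold change was 0.21 (standard error 0.38, limma adjusted p = 0.850), and -0.13 without that library.

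The secreted vascular factors reached at most 1.66 times the control mean in any JunBΔep-labelled library (Vegfa in replicate 2). Vegfa (chromosome 17, 46153942 to 46169326), the main growth factor of blood vessels, was at 48.2, 37.0 and 43.0 FPKM in the controls and at 60.5, 25.1 and 71.1 FPKM in the JunBΔep-labelled libraries. Of these libraries 2 lay above every control and 1 below every control. The log2 fold change was 0.16 (standard error 0.40, 95% interval -0.82 to 1.14, limma adjusted p = 0.895). It became 0.62 without JunBΔep replicate 1, where the unadjusted p was 0.0241 and the adjusted p 0.575 from limma, and -0.01 without the library labelled JunBΔep replicate 0. Adm (chromosome 7, 117771175 to 117773331), which encodes the vasodilator peptide adrenomedullin, was at 4.88, 6.89 and 6.69 FPKM in the controls and at 6.68, 2.64 and 6.87 FPKM in the JunBΔep-labelled libraries. Only JunBΔep replicate 1 lay outside the control range. JunBΔep and control differed by a log2 fold change of -0.26 (standard error 0.39, limma adjusted p = 0.819), -0.45 without the library labelled JunBΔep replicate 0 and 0.14 without replicate 1.

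Bnip3 (chromosome 7, 146082519 to 146101202), a mitochondrial outer membrane protein that directs mitochondria to autophagy, was at 91.4, 127 and 78.7 FPKM in the controls and at 77.3, 45.3 and 148 FPKM in the JunBΔep-labelled libraries. It was the only member whose level in the library labelled JunBΔep replicate 0 lay below every control, and it was highest in JunBΔep replicate 2 and lowest in replicate 1. The log2 fold change was -0.27 (standard error 0.45, 95% interval -1.36 to 0.83, limma adjusted p = 0.839), -0.24 without the library labelled JunBΔep replicate 0, 0.14 without replicate 1 and -0.71 without replicate 2. Its relative Bnip3l, with the same role in mitochondrial removal, was at 49.5, 40.5 and 56.3 FPKM in the controls and at 101, 56.6 and 52.5 FPKM in the JunBΔep-labelled libraries, so the 2 relatives were on opposite sides of the control mean in the library labelled JunBΔep replicate 0.

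**Figure D2:**
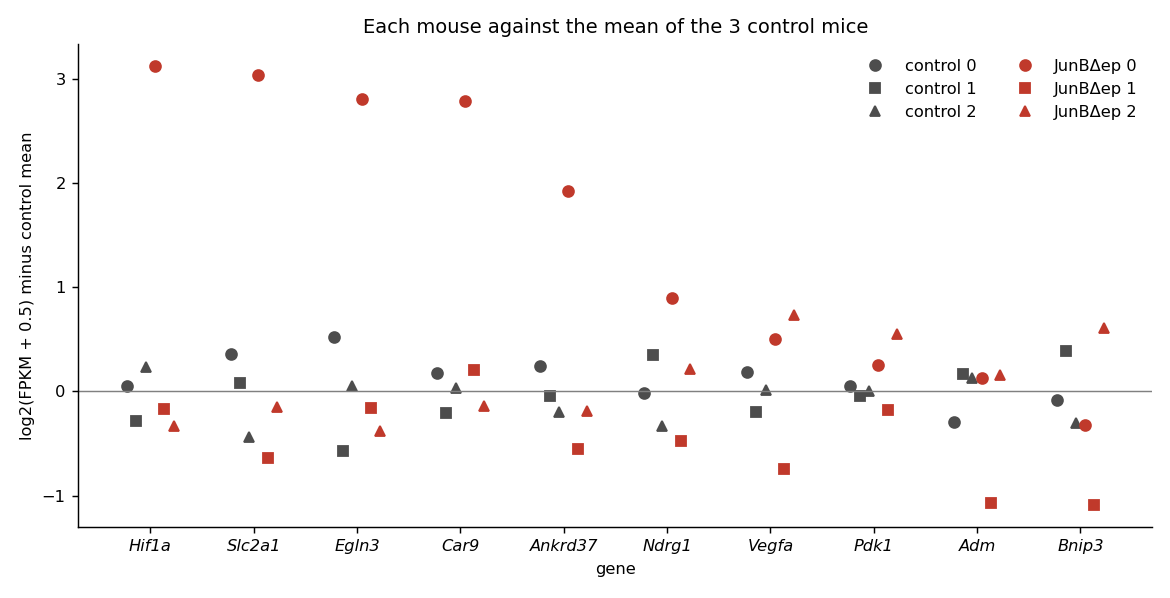
Log2(FPKM + 0.5) of each mouse minus the mean of the 3 control mice, for each hypoxia response gene, ordered by the value in the library labelled JunBΔep replicate 0. That library lies at 1.92 to 3.12 for Ankrd37, Car9, Egln3, Slc2a1 and Hif1a and at -0.33 to 0.89 for the other 5 genes, and JunBΔep replicate 1 is the lowest mouse for 7 of the 10.

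In the library labelled JunBΔep replicate 0, 5 of the 10 members (Hif1a, Slc2a1, Egln3, Car9 and Ankrd37) were above 2 times the highest control, against 9.06% of all tested genes, and 6 of 10 had their highest value there, against 29.7%. In JunBΔep replicate 1, 7 of the 10 members had their lowest value of the 6 mice, against 17.6% of all tested genes. In JunBΔep replicate 2, Vegfa, Bnip3 and Pdk1 had their highest value, 3 of 10 against 14% of all tested genes. The median of the 10 members against the control mean was 1.41, -0.51 and 0.01 on the log2 scale in JunBΔep-labelled libraries 0, 1 and 2, where the median of all tested genes was -0.02, -0.01 and 0.00. Within the libraries whose sample names fall in the first number series (the library labelled JunBΔep replicate 0 and control replicates 0 and 1), 9 of 10 members were higher in the library labelled JunBΔep than in the controls, with a median of 1.27, and 8404 of the 17021 tested genes were, with a median of -0.01. Within the second series (JunBΔep replicates 1 and 2 and control replicate 2) 4 of 10 were higher, with a median of -0.01, and 9376 of 17021, with a median of 0.04.

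**Figure D3:**
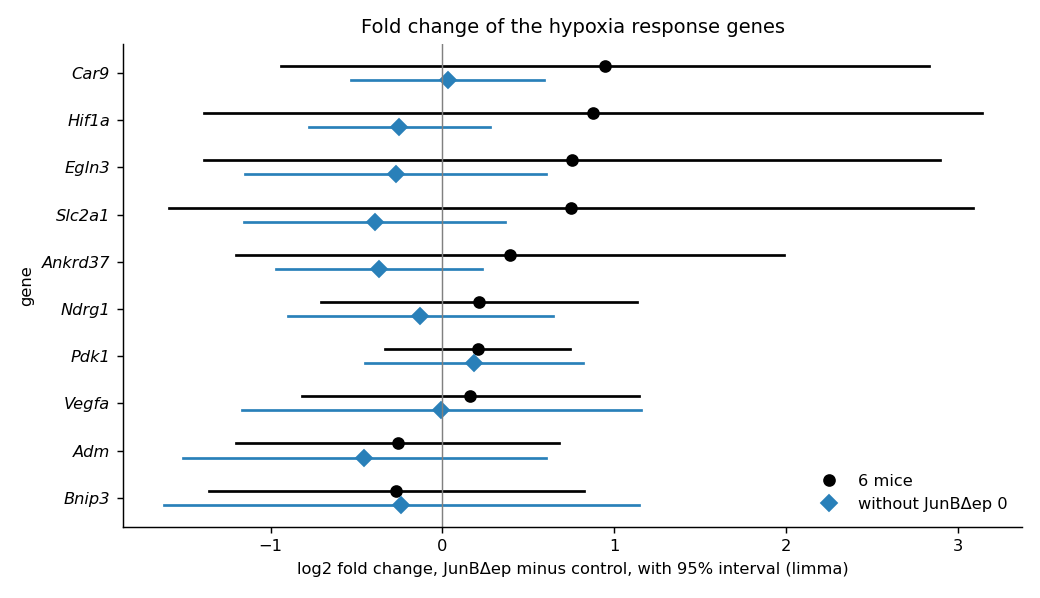
Log2 fold change of each hypoxia response gene, JunBΔep minus control, with its 95% interval from limma, for all 6 mice (black circles) and without the library labelled JunBΔep replicate 0 (blue diamonds). Every interval includes 0, and leaving out that library narrows the intervals of Hif1a, Egln3, Slc2a1, Car9 and Ankrd37 and moves their estimates to between -0.39 and 0.03.

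The other genes of oxygen sensing lay on both sides of the controls in the library where Hif1a was high. Of the 8 genes of this list (Epas1, Hif3a, Arnt, Arnt2, Egln1, Egln2, Hif1an and Vhl), 0 were called by limma and 1 had an unadjusted p below 0.05. In the library labelled JunBΔep replicate 0 their median against the control mean was -0.25 on the log2 scale, and 0 of 8 were above 2 times the highest control. Arnt, the partner of Hif1a, was at 16.7, 14.4 and 17.0 FPKM in the controls and at 15.2, 15.7 and 16.7 FPKM in the JunBΔep-labelled libraries. Epas1, the other main alpha subunit and a gene of blood vessel cells, was at 29.5, 30.2 and 24.1 FPKM in the controls and at 22.7, 14.0 and 44.9 FPKM in the JunBΔep-labelled libraries, with its highest value in replicate 2 as for Vegfa. Hif1an, an asparagine hydroxylase that blocks the activation domain of HIF alpha subunits, was at 18.4, 17.0 and 16.3 FPKM in the controls and at 10.2, 11.5 and 13.3 FPKM in the JunBΔep-labelled libraries. These groups did not overlap, and the log2 fold change was -0.55 (standard error 0.17, limma adjusted p = 0.378), short of the threshold, and -0.46 without the library labelled JunBΔep replicate 0. Vhl, the ubiquitin ligase subunit that recognises hydroxylated HIF, was above every control in that same library, at 1.40 times their mean, while Epas1 and Egln2 lay below every control there. The related hydroxylase Egln1 reached 54.1 FPKM in the library labelled JunBΔep replicate 0, or 1.40 times the control mean, where Egln3 was at 6.78 times.

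Among 27 tested genes of a list of other HIF targets, 0 were called by limma and 2 had an unadjusted p below 0.05. In the library labelled JunBΔep replicate 0, 11 of the 27 were above 2 times the highest control, against 9.06% of all tested genes. The median against the control mean was 1.06 on the log2 scale there, against 0.10 and -0.02 in JunBΔep replicates 1 and 2. Car12, a further surface carbonic anhydrase, was at 10.4, 6.96 and 13.2 FPKM in the controls and at 104, 19.6 and 14.6 FPKM in the JunBΔep-labelled libraries, above every control in all 3. Its log2 fold change was 1.61 (standard error 0.75, limma adjusted p = 0.708), and 0.75 without the library labelled JunBΔep replicate 0. Stc2, a secreted glycoprotein of calcium and phosphate handling, was at 2.57, 3.17 and 2.25 FPKM in the controls and at 11.4, 3.86 and 18.6 FPKM in the JunBΔep-labelled libraries, also without overlap (log2 fold change 1.67, standard error 0.55, limma adjusted p = 0.455, and 1.54 without the library labelled JunBΔep replicate 0). Vldlr, a lipoprotein receptor, went the other way, with 9.41, 6.86 and 8.82 FPKM in the controls and 2.95, 1.69 and 3.45 FPKM in the JunBΔep-labelled libraries (log2 fold change -1.50, standard error 0.29, limma adjusted p = 0.101, and -1.58 without that library). Such separation of the genotypes was found for 4 of the 27 targets and for 14.8% of all tested genes. Besides Car12, Stc2 and Vldlr it held for Ddit4, named for this count only. Ddit4 ran from 69.5 to 83.7 FPKM in the JunBΔep-labelled libraries, with controls between 44.6 and 63.3 FPKM. Epo, the hormone of red cell production, is listed at 0 in all 6 mice and was not tested.

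Of 18 listed glycolysis genes, 9 were above 2 times the highest control in the library labelled JunBΔep replicate 0, against 9.06% of all tested genes. The median against the control mean was 1.13 there. In JunBΔep replicate 1, where the median was -0.86, 12 of 18 had their lowest value, against 17.6% of all tested genes. By limma 0 of 18 were called and 1 had an unadjusted p below 0.05, against 7.56% of all tested genes. That gene was Aldoa, an aldolase abundant in muscle, at 3014, 3842 and 2897 FPKM in the controls and at 957, 665 and 1469 FPKM in the JunBΔep-labelled libraries (log2 fold change -1.72, standard error 0.39, limma adjusted p = 0.163, and -1.71 without the library labelled JunBΔep replicate 0). Skeletal muscle markers were lower in the same libraries, and their part in these values was not tested. Slc16a3, which exports lactate from glycolytic cells and was chosen after its values were seen, was at 16.3, 14.2 and 11.8 FPKM in the controls and at 128, 3.32 and 4.72 FPKM in the JunBΔep-labelled libraries. It lay above every control in one library and below every control in the other 2. Many glycolysis genes have processed copies in the mouse genome, and the alignment allowed reads with several matches, so how reads were shared with such copies is not known here.

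**Figure D4:**
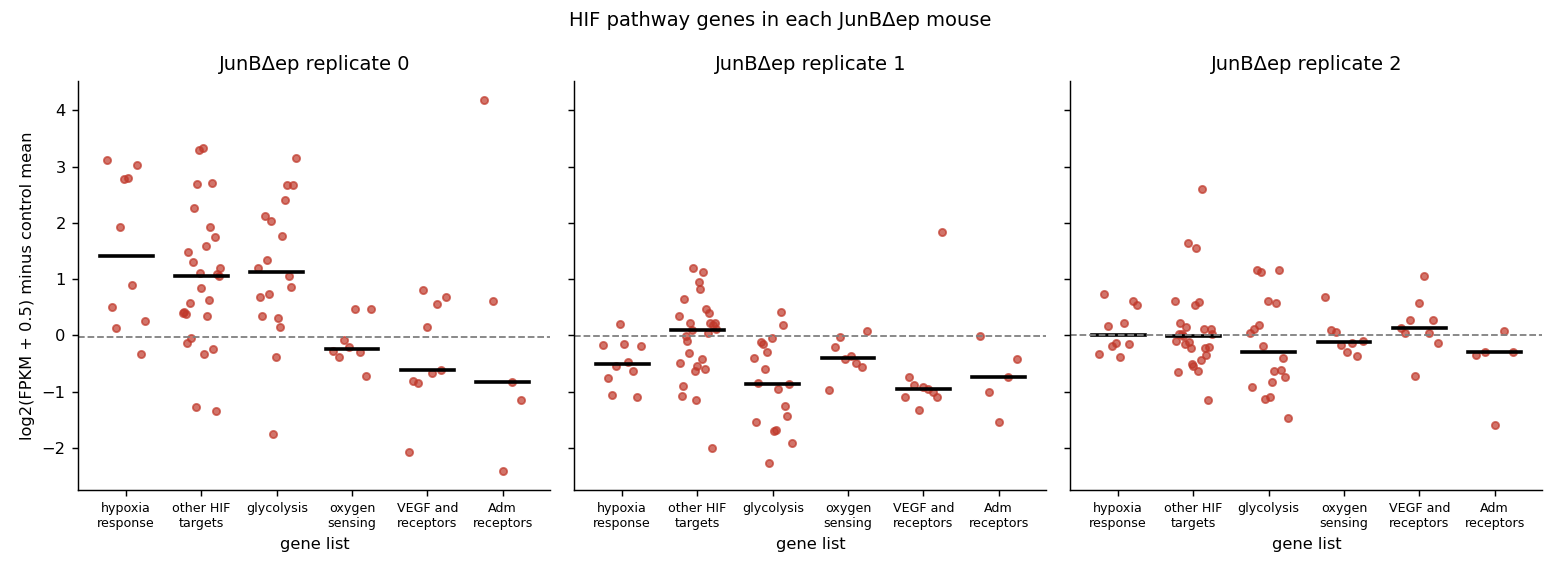
Log2(FPKM + 0.5) of single genes minus the control mean in each library labelled JunBΔep, for the 10 hypoxia response genes and 5 lists of pathway genes, with a bar at each list's median and a dashed line at the median of all tested genes. In replicate 0 the medians of the hypoxia response genes, other HIF targets and glycolysis genes lie at 1.06 to 1.41, and those of the other 3 lists lie below 0. In replicate 2 all medians lie between -0.30 and 0.13.

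The 12 paralogs of the members had no common direction in the library labelled JunBΔep replicate 0. There 4 had their highest and 5 their lowest value of the 6 mice, against 5057 and 5419 of the 17021 tested genes. Whether the paralogs differ from all tested genes in these counts was not tested. Slc2a4, the insulin-responsive glucose transporter of muscle and fat, was at 54.6, 62.6 and 51.7 FPKM in the controls and at 6.10, 15.8 and 54.1 FPKM in the JunBΔep-labelled libraries, so in replicate 0 it was at 0.108 times the control mean where Slc2a1 was at 8.16 times. Slc2a3, a transporter of neurons and leukocytes, is counted with the glycolysis genes and not with the 12 paralogs. It reached 14.1 FPKM in the library labelled JunBΔep replicate 0, and the controls lay between 1.24 and 3.48 FPKM. Pdk2 was at 81.1, 83.4 and 91.7 FPKM in the controls and at 7.52, 20.7 and 49.1 FPKM in the JunBΔep-labelled libraries, without overlap (log2 fold change -2.08, standard error 0.63, limma adjusted p = 0.390). The change was -1.41 without the library labelled JunBΔep replicate 0 and -2.72 without replicate 2. Ndrg2, a relative of Ndrg1 that is abundant in muscle, was at 390, 523 and 362 FPKM in the controls and at 74.6, 98.3 and 135 FPKM in the JunBΔep-labelled libraries. It fell by 2.07 on the log2 scale (standard error 0.28, limma adjusted p = 0.0308). Without the library labelled JunBΔep replicate 0 the log2 fold change was -1.86 and no longer passed the threshold (limma adjusted p = 0.0636). The call was also lost with all 6 mice under no filter, scaling to a sum of 1000000, the replicate block and the number series block (limma adjusted p = 0.0510, 0.0515, 0.190 and 0.0856), and in each of the other fits that left out a mouse except that without JunBΔep replicate 2. Muscle markers summed to at most 5027 FPKM in these libraries and to at least 22990 FPKM in the controls, and their part in the result was not tested.

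The receptors of the vascular factors went both ways in the library where Hif1a was high. Of 9 genes of the VEGF family and its receptors, 0 were called by limma, 0 had an unadjusted p below 0.05, and 0 were above 2 times the highest control in the library labelled JunBΔep replicate 0, where their median was -0.61 on the log2 scale. Kdr, the main receptor of Vegfa on blood vessels, was at 5.42, 4.35 and 3.62 FPKM in the controls and at 2.59, 2.02 and 9.71 FPKM in the JunBΔep-labelled libraries. The lymphatic vessel receptor Flt4 was at 1.62 times and Nrp2 at 1.60 times the control mean in the library with high Hif1a, and both exceeded all 3 controls. Kdr and Vegfa were both lowest in JunBΔep replicate 1 and both highest in replicate 2, where the sum of 8 endothelial markers was also highest, at 215 FPKM against 55.6 FPKM in replicate 1, 74.4 FPKM in replicate 0 and 84.4 to 152 FPKM in the controls. The part of blood vessel content in the Vegfa values was not tested.

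One receptor subunit of the adrenomedullin system was called. Adrenomedullin binds the receptor Calcrl together with Ramp2 or Ramp3, while Calcrl with Ramp1 forms the receptor of a related nerve peptide, CGRP. Ramp1 was at 22.8, 26.1 and 19.8 FPKM in the controls and at 3.87, 7.47 and 7.17 FPKM in the JunBΔep-labelled libraries, and it fell by 1.85 on the log2 scale (standard error 0.28, limma adjusted p = 0.0443). It was also called without the library labelled JunBΔep replicate 0, with a log2 fold change of -1.57 (adjusted p = 0.0418 from limma), and in no other fit that left out a mouse. With all 6 mice the call ended under no filter, scaling to a sum of 1000000, the replicate block and the number series block (limma adjusted p = 0.0664, 0.114, 0.193 and 0.0949). Ramp2 was at 38.8, 52.1 and 26.0 FPKM in the controls and at 20.9, 22.2 and 39.7 FPKM in the JunBΔep-labelled libraries (adjusted p = 0.722 from limma). Calcrl itself was at 1.64 times the control mean in the library labelled JunBΔep replicate 0, its highest value. Adm2, a second ligand of the family, was at 0.515, 0.151 and 0.757 FPKM in the controls and at 16.7, 0.433 and 0.235 FPKM in the JunBΔep-labelled libraries.

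Of the 76 pathway genes on these lists together, 75 were tested and 2 were called, Ramp1 and Ndrg2, both lower and against 1.38% of all tested genes. Their median log2 fold change was -0.06, and -0.29 without the library labelled JunBΔep replicate 0, against 0.03 over all tested genes in both cases.

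The genes whose pattern over the 6 mice was most like Hif1a, by Pearson's correlation of log2(FPKM + 0.5), were Lrrc10b, Nab1, Gm13283, Bach1 and Adm2, with r of 0.998 to 1.00. Lrrc10b was at only 0.149 to 0.323 FPKM and Gm13283 at 0 to 0.579 FPKM over the 6 mice, levels at which the added 0.5 weighs heavily. Over the 5 mice without the library labelled JunBΔep replicate 0 the r of the 5 genes was 0.999, 0.975, 0.949, 0.920 and 0.941 in the same order. The genes were picked on an r that includes these 5 mice, so these values are not a separate check. As many as 642 tested genes reached an r of 0.95 over the 6 mice. Among the members the correlation with Hif1a was 0.99 for Car9, 0.98 for Egln3, 0.95 for Ankrd37 and 0.95 for Slc2a1 over the 6 mice, and 0.54, 0.75, 0.21 and -0.07 over the 5 mice without it. For Vegfa the genes most alike were Galns, Galnt4, Apobec3, Il2rb and Sema6d, with r of 0.97 to 0.98 over 6 mice and over the 5, and 20 tested genes reached 0.95. Pdk1 was the member most like Vegfa, at 0.93 over 6 mice and 0.92 over the 5, while Hif1a was at 0.37 and -0.09. All points share the 6 libraries, and these values are descriptions only.

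**Figure D5:**
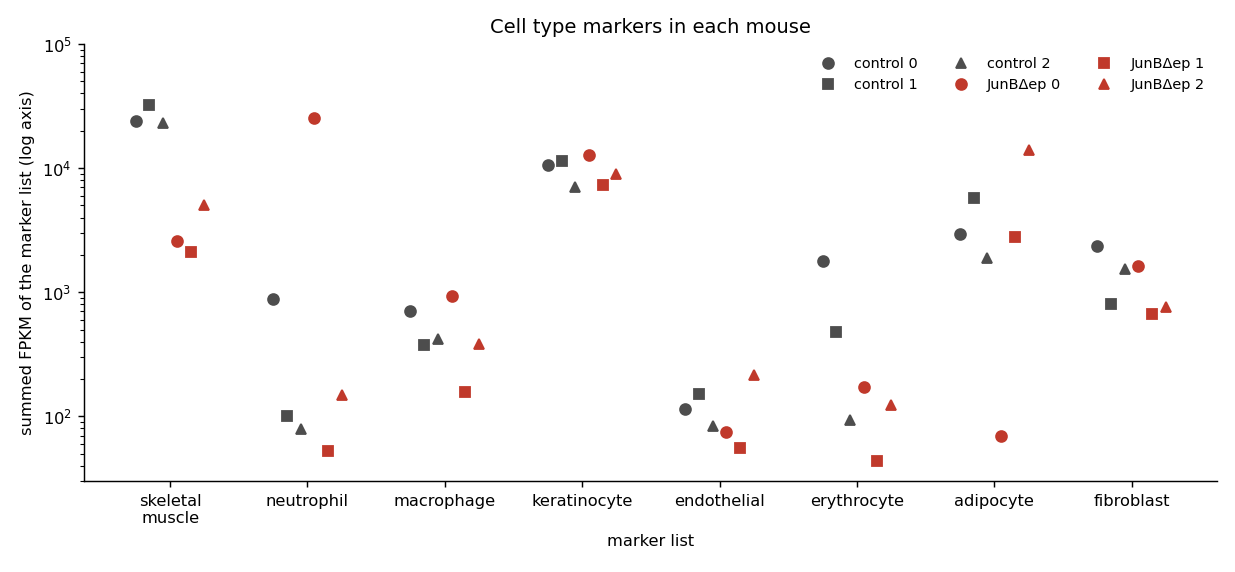
Summed FPKM of 8 lists of cell type markers in each mouse, on a log axis. The library labelled JunBΔep replicate 0 has the highest neutrophil sum, 25124 FPKM, and the lowest adipocyte sum, 70.1 FPKM, and JunBΔep replicate 2 has the highest adipocyte and endothelial sums, 14069 and 215 FPKM.

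In the library where Hif1a, Slc2a1, Egln3, Car9 and Ankrd37 were high, neutrophil markers were also high, led by S100a8 at 24456 FPKM, against 8.15 to 744 FPKM in the controls, and the sum of 9 macrophage markers was 929 FPKM, against 378 to 710 FPKM. Of these 9 markers 5 were highest in that library (Lyz2, Cd68, Itgam, C1qa and C1qb), with Lyz2 giving 557 FPKM of the sum, while Csf1r, Emr1 and Mrc1 lay inside the control range and Cd163 below it. Highest in that library were 7 of the 8 neutrophil markers measured, and none was at 0 in any mouse. Among the controls the neutrophil sum ran from 78.6 to 883 FPKM and was highest in replicate 0, with S100a8 giving 744 FPKM of it. The macrophage, erythrocyte and fibroblast sums were also highest of the controls there, at 710, 1790 and 2369 FPKM. Egln3, Slc2a1, Car9 and Ankrd37 had their highest control value in that mouse, as did Vegfa and Pdk1, while Adm had its lowest. Hif1a, at 12.6 FPKM, lay between its levels in the other 2 controls. The matches are thus not particular to neutrophil markers. The sum of 10 keratinocyte markers was also highest in the library labelled JunBΔep replicate 0, at 12769 FPKM. The controls lay at 7049 to 11381 FPKM. Krt1, Krt5 and Krt10 gave 4466, 3725 and 3517 FPKM of that sum, with Krt10 inside the control range. Lor had its lowest value of the 6 mice in that library, and 3 of the 10 are listed at 0. The median marker stood 0.17 log2 units above its control mean. The erythrocyte sum was 172 FPKM in the library labelled JunBΔep replicate 0, within the 93.1 to 1790 FPKM of the controls. In JunBΔep replicate 2, where Vegfa, Bnip3 and Pdk1 were highest, adipocyte markers summed to 14069 FPKM, against 1876 to 5789 FPKM in the controls. In JunBΔep replicate 1, where 7 of 10 members were lowest, the sums of neutrophil, macrophage, endothelial, erythrocyte, fibroblast and muscle markers were the lowest of the 6 mice. The part of these cell types in the levels of the hypoxia response genes was not tested.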

How the data were processed

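Poly(A) RNA of whole skin from 3 JunBΔep and 3 control mice was sequenced with a strand-marking kit. Reads were aligned by the authors to mm9 with TopHat 2.0.10, Bowtie 1.0.0 and SAMtools 0.1.19, with up to 20 hits per read, and FPKM values per gene and mouse were deposited. The submitters' processing notes also list Cufflinks, without a role. Groups came from the genotype label, and replicate numbers from the description. Read counts were not analysed here.

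The log2(FPKM + 0.5) of each gene was fitted in limma 3.58.1 (R 4.3.3) with an intensity trend, without a block, over the 17021 genes whose mean reached 0.1 FPKM. Two-sided p-values were adjusted by Benjamini-Hochberg, and those below 0.05 were called. The fit was also run on simulated data, and the outcome is not given here. The members, gene lists and naming rule were chosen with earlier results of these data known. The rule names the members, Junb, pathway list genes (those with an unadjusted p below 0.05, paralogs and partners) and the 5 genes most like Hif1a and Vegfa. Of the listed symbols 3 were absent, and Pkm2 was read as Pkm. Gene positions are from GENCODE vM1, and promoter letters from RefSeq (GRCm38.p6), matched to mm9. The smallest two-sided p of an exact permutation test in this design is 0.1. Nothing in the labels names litters, so p-values measure the spread between these mice. Alternatives were other pseudocounts, filters, scalings and limma settings, blocks, and each mouse left out. Python 3.11.15 made the tables and plots.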

Additional observations from a re-analysis of the deposited data

How the results depend on the processing

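The count of 0 called members held under all 17 alternatives, and the count at an unadjusted p below 0.05 was 0 in each but 1, the fit without JunBΔep replicate 1 (1 member, Vegfa). No member changed direction in the 10 refits that kept all 6 mice. The number series block moved 5 of them by over 1.5 times, Hif1a to 1.38, Egln3 to 1.26, Slc2a1 to 1.43, Ankrd37 to 0.83 and Ndrg1 to 0.46. Without the library labelled JunBΔep replicate 0 the log2 fold changes reversed to -0.25 (Hif1a), -0.01 (Vegfa), -0.37 (Ankrd37), -0.27 (Egln3), -0.13 (Ndrg1) and -0.39 (Slc2a1), without JunBΔep replicate 1 to 0.14 (Adm) and 0.14 (Bnip3), and without JunBΔep replicate 2 to -0.12 (Vegfa). With a mouse left out the values ran from -0.25 to 1.48 (Hif1a), -0.12 to 0.62 (Vegfa), -0.47 to 0.14 (Adm), -0.37 to 0.87 (Ankrd37), -0.27 to 1.32 (Egln3), -0.13 to 0.55 (Ndrg1), -0.39 to 1.44 (Slc2a1), -0.71 to 0.14 (Bnip3), 0.03 to 1.49 (Car9) and 0.03 to 0.40 (Pdk1). The 2 called pathway genes became 0 without a filter and 0 after scaling to a sum of 1000000, where 8 and 9 had an unadjusted p below 0.05, and 0 to 1 when a mouse was left out. The 235 genes called over the table became 0 to 254 when a mouse was left out, 0 of them without each control or without JunBΔep replicate 1 and 135 without the library labelled JunBΔep replicate 0. With the replicate block the counts in limma were 0 genes and 0 pathway genes (972 and 7 at an unadjusted p below 0.05), and with a block on the number series 0 and 0 (1523 and 14). The replicate numbers do not pair the mice: deviations of same-numbered mice correlated at 0.12, -0.23 and -0.43. The depth in reads is unknown, so no counting error is given, and the intervals of Hif1a, Egln3 and Slc2a1 span more than 4 log2 units, which limits what 3 mice a group can show.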
